A study of Homo sapiens with 4 samples.

Results

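This account follows the ribosome footprints on 5 genes of the translation machinery in A375 cells, an established human melanoma line, after 48 h without arginine. The genes are EEF2, RPS6, RPS15, RPL37 and TARS1, 5 of the 78724 gene rows in the deposited count table. The first 4 were taken by their Ensembl identifiers and TARS1 by its place on the short arm of chromosome 5. They were picked with the footprint counts of the same 4 libraries in view, so their differences between the media are given as descriptions without a test. All 5 passed the filter on low counts, as did 2526 rows in all.

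The arginine-free group consisted of 2 libraries from cells kept in a medium built on an amino acid-free RPMI 1640 base, to which glucose, pyruvate and every amino acid except L-arginine had been added. The control group consisted of 2 libraries from cells in control medium for the same time. The line was otherwise grown in DMEM with fetal bovine serum. The labels do not say on which base the control medium was made, whether serum was in the arginine-free medium, or whether the 2 libraries of a group came from separate cultures, so the spread between them may be technical. All libraries came from this 1 cell line, without removal of ribosomal RNA. They held 234766 and 192006 counted reads in arginine-free medium, against 105004 and 217989 in control medium. The 5 rows took 3.89% and 3.76% of all reads in the arginine-free libraries, against 2.38% and 1.91% in the control libraries.

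During translation the ribosome moves along the mRNA in steps of a codon, and eEF2, the product of EEF2, is the GTPase that drives each step. RPS6 and RPS15 encode proteins of the small ribosomal subunit and RPL37 a protein of the large subunit, while TARS1 encodes the cytosolic enzyme that loads threonine onto its tRNA. mRNAs of ribosomal proteins and of eEF2 are textbook members of the 5′ terminal oligopyrimidine class, which begin with a C followed by an unbroken run of C and T bases, and whose translation depends on the amino acid-sensing kinase complex mTORC1. The transcription factor ATF4, made when amino acids are scarce, is known for switching on several aminoacyl-tRNA synthetase genes.

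The sequence at the transcription start is the feature by which these mRNAs are usually told apart, so it is shown for the 4 genes with an entry in the RefSeq promoter table (GRCh38.p14), which leaves RPL37. Each line gives 30 bases, 15 before the start and 15 from it, 5′ to 3′ on the strand of the gene, and capitals mark the longest unbroken run of C and T in the window. The windows lie at chr19:3985449-3985478 on the minus strand (EEF2), chr9:19380222-19380251 on the minus strand (RPS6), chr19:1438381-1438410 on the plus strand (RPS15), and, for the 2 starts listed for TARS1, at chr5:33440681-33440710 and chr5:33440950-33440979 on the plus strand.
EEF2: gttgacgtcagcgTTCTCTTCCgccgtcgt
RPS6: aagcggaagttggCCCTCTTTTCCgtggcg
RPS15: tgcgcaggcgcggaccaaagcgaTCTCTTC
TARS1, first start: tgtccgggaaggtccatgattgTTCCacat
TARS1, second start: gttagggcgCCTTTCgattgcatcagctgg

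The run was 9 bases long at EEF2 and 11 at RPS6, and in both it spanned the listed start. Of the 35116 entries in the table, 9.22% had a run of at least 9 bases in the same window and 4.49% one of at least 11. RPS15 had a run of 7 bases that began at position 9 after the start and ended with the window, a length that 20.2% of entries reached. At TARS1 the runs were 4 and 6 bases long, which 70.7% and 31.1% of entries reached. The letters CTCTT, read on the strand of the gene and picked after the windows had been seen, stood in the windows of EEF2, RPS6 and RPS15 and in neither window of TARS1. They stood in 4.26% of all windows.

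The second TARS1 entry held, on its opposite strand, the letters TGATGCAA, the form of the element through which ATF4 acts on amino acid response genes. They read TTGCATCA on the strand of the gene, in capitals here: gttagggcgcctttcgaTTGCATCAgctgg. Searched on both strands of the 300-base entries, these letters were found in 0.866% of them, and in no entry of EEF2, RPS6 or RPS15. The letters TATAAA were found in the entry of EEF2 alone among these genes, against 11.5% of all entries. Such matches describe the letters and do not show that a factor binds there.

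The place of a row matters for what its count means. The table's coordinates are those of GENCODE 47 on GRCh38, while the submitters' processing notes name GRCh37 and hg19, so a row may hold only part of the reads of its gene. EEF2 (ENSG00000167658, chromosome 19, 3976056 to 3985463) has 15 separate exon blocks that together span 3158 bases, the longest of 692 bases. RPS15 (ENSG00000115268, chromosome 19, 1438358 to 1440495) has 3 blocks over 1291 bases, and RPS6 (ENSG00000137154, chromosome 9, 19375715 to 19380236) has 4 over 2508 bases. RPL37 (ENSG00000145592, chromosome 5, 40825262 to 40835222) also has 4, over 7875 bases, of which a single block takes 7312. TARS1 (ENSG00000113407, chromosome 5, 33440696 to 33468086) has 22 blocks over 2930 bases, the longest of 527 bases. The share of each gene's reads that its row holds was not tested.

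Levels are given in CPM, in which each library was brought to a common size through its tested rows and a TMM factor for composition. They are levels of footprints in bulk cells, in which more ribosomes per mRNA, more mRNA per cell and a change in the mix of cells cannot be told apart, and no matched RNA libraries were used here. Fold changes are those of the edgeR fit over all 2526 tested rows, on the log2 scale with a standard error (SE), arginine-free over control.

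EEF2 was the fourth most abundant of the tested rows. It held 5189 and 4030 reads in the arginine-free libraries, against 1292 and 2170 in the control libraries. As levels these were 22473 and 25313 CPM in arginine-free medium, against 12176 and 11129 CPM in control medium, so the groups lay far apart and the libraries within a group were close to each other. For EEF2, as for the other 4 genes, both arginine-free libraries stood above both control libraries in CPM, although for TARS1 this did not hold for its share of all counted reads. That was also the case for 33.1% of all tested rows, for 34.9% of the 175 in the stretches of chromosomes 5, 9 and 19 where rows were read as genes, and for 49.8% of the 211 rows with at least the mean count of TARS1. The opposite order, both arginine-free libraries below both control libraries, was found for 34.2% of all tested rows and 32.6% of those in the stretches. EEF2 averaged 23893 ± 2008 CPM in arginine-free medium and 11653 ± 741 CPM in control medium (SD, n = 2 each), and its fitted log2 fold change was 1.04 (SE 0.26), or 2.05-fold.

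EEF2 alone accounted for 2.21% of all counted reads in arginine-free replicate 1 (95% Wilson interval 2.15 to 2.27) and for 2.10% in arginine-free replicate 2 (2.04 to 2.16). It took 1.23% in control replicate 1 (1.17 to 1.30) and 0.995% in control replicate 2 (0.955 to 1.04). For EEF2, RPS6 and RPL37 no interval of an arginine-free library reached one of a control library. For RPS15 the interval of arginine-free replicate 1 (0.651 to 0.717) overlapped that of control replicate 1 (0.609 to 0.707). The intervals of TARS1 overlapped between the media too. How often intervals are separate over all tested rows was not counted, and rows with many reads have narrow intervals. The genes were picked on this comparison, so the separation is a description and no test. All these intervals treat reads as independent and leave out the spread between libraries. Amplified fragments without molecular identifiers are not independent molecules, so the intervals may be too narrow even for counting error.

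RPS6, the small-subunit protein whose phosphorylation is widely read as a sign of mTORC1 activity, gave 1354 and 1113 reads in arginine-free medium, against 354 and 540 in control medium. Its levels were 5864 and 6991 CPM in arginine-free medium, against 3336 and 2769 CPM in control medium. The lowest arginine-free library was well above the highest control library. The log2 fold change was 1.08 (SE 0.24), close to that of EEF2, and over the pairs of an arginine-free with a control library it ranged from 0.81 to 1.34.

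RPS15, a protein of the head of the small subunit, held 1604 and 1512 reads in arginine-free medium, against 689 and 1138 in control medium. At 6947 and 9497 CPM in arginine-free medium, against 6493 and 5836 CPM in control medium, the groups were separate but nearly touched, because arginine-free replicate 1 lay only just above control replicate 1. The arginine-free libraries differed 1.37-fold from each other, the widest gap within a group among the 5 genes. The log2 fold change was 0.42 (SE 0.25). Leaving out arginine-free replicate 1 gave 0.67 and leaving out the other arginine-free library gave 0.24, so the size of this difference depends on which of these libraries is counted.

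RPL37, a small zinc-binding protein of the large subunit, had the largest difference of the 5 genes. Its row held 811 and 447 reads in arginine-free medium, against 92 and 167 in control medium. The levels were 3512 and 2808 CPM in arginine-free medium, against 867 and 856 CPM in control medium. The control libraries were almost equal, and the arginine-free libraries were separated from each other by less than from the controls. The log2 fold change was 1.88 (SE 0.23), or 3.67-fold, and over pairs of libraries it ranged from 1.70 to 2.04. By fold change RPL37 ranked 124 among the 2526 tested rows, RPS6 361, EEF2 382, RPS15 838 and TARS1 1059.

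TARS1 was the least abundant of the 5 genes, with 183 and 122 reads in arginine-free medium, against 69 and 141 in control medium. Its levels of 793 and 766 CPM in arginine-free medium stood against 650 and 723 CPM in control medium. In CPM the groups did not overlap, yet they were closer together than those of any other gene here. As shares of all counted reads they did overlap, at 0.0780% and 0.0635% in arginine-free medium, against 0.0657% and 0.0647% in control medium. The log2 fold change was 0.18 (SE 0.21). It was 0.28 without control replicate 2 and 0.11 without control replicate 1. It turned to -0.058 in a fit of the 580 rows that reached 50 counts throughout either medium, where the values of the other genes were lower by similar amounts.

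**Figure D1:**
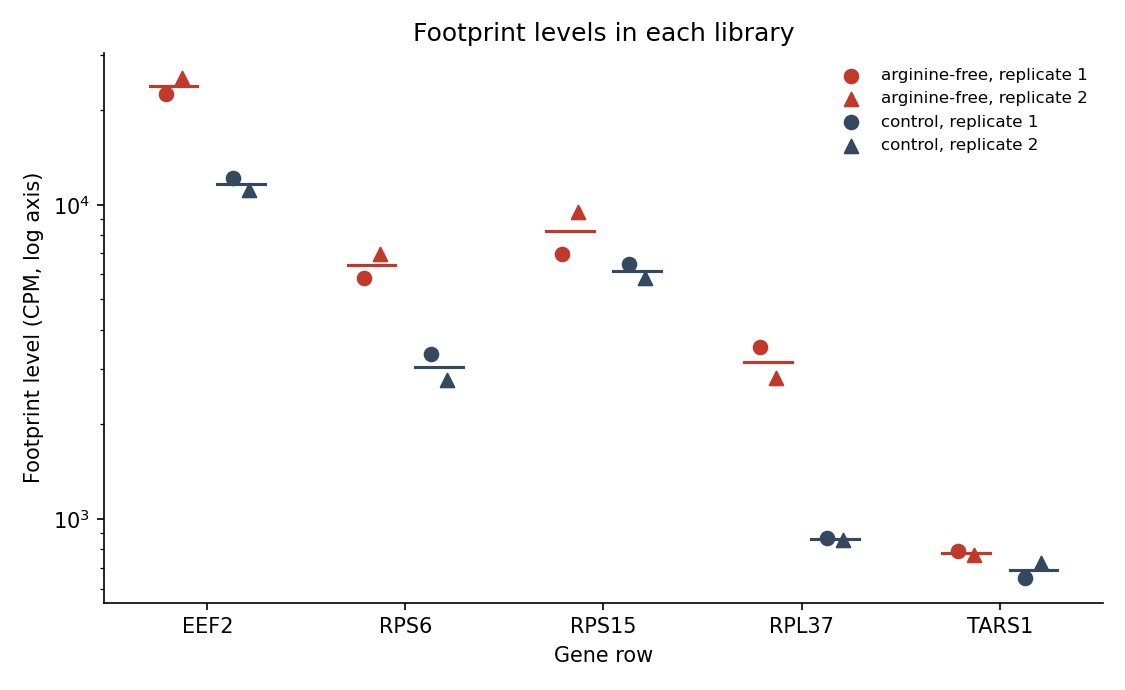
Footprint levels (CPM, log axis) of the 5 gene rows in each library; points are libraries, circles replicate 1 and triangles replicate 2, and short lines are means of 2 libraries. The arginine-free libraries lie clearly above the control libraries for EEF2, RPS6 and RPL37, at 2808 to 3512 CPM against 856 to 867 CPM for RPL37, and lie close to them for RPS15 and TARS1.

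The plot of fold changes sets the 5 values beside those of all tested rows, whose median log2 fold change was -0.03. The 211 rows with at least as many reads as TARS1 had a median of 0.25. They were chosen by mean raw count, to which the arginine-free libraries gave more reads. Rows higher in arginine-free medium therefore passed this cut more easily, and the shift is partly built in. Across the table, 405 rows were higher in arginine-free medium, or 16% of those tested, and 428 were lower, or 16.9% (edgeR, adjusted p under 0.05). In the stretches 16% were higher and 14.9% lower, and of the 211 abundant rows 32.7% were higher. These shares describe the table and are no measure of the 5 genes, which were picked on this comparison.

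**Figure D2:**
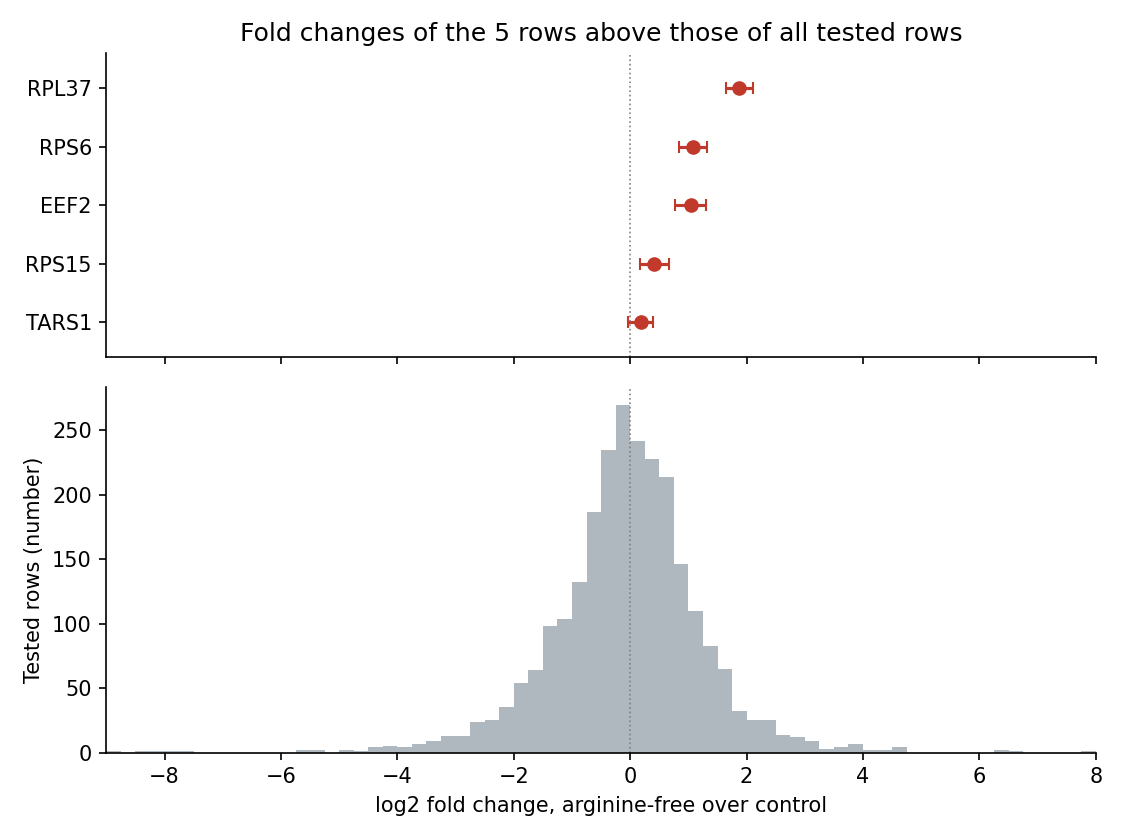
Upper panel: log2 fold changes, arginine-free over control, of the 5 gene rows, with bars of 1 standard error. Lower panel: the number of tested rows at each log2 fold change, 2526 in all; the 5 rows lie from 0.18 (TARS1) to 1.88 (RPL37), on the right of the peak of the distribution.

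The genes were next compared with one another inside each library, where no scaling between libraries enters. Reads of EEF2 per read of RPS6 were 3.83 and 3.62 in arginine-free medium, against 3.65 and 4.02 in control medium. This ratio overlapped between the media, and the mean ratio in arginine-free medium was 0.972 times that in control medium, so these 2 rows kept nearly the same proportion in all 4 libraries. Their log2 fold changes differed by -0.04, EEF2 minus RPS6.

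The ribosomal protein rows did not keep their proportions. Reads of RPS6 per read of RPS15 were 0.844 and 0.736 in arginine-free medium, against 0.514 and 0.475 in control medium. Reads of RPL37 per read of RPS15 were 0.506 and 0.296 in arginine-free medium, against 0.134 and 0.147 in control medium. In both pairs the media were separate, and the mean ratios differed 1.60-fold and 2.86-fold. How often pairs of rows are separate in this way over the whole table was not counted. For single rows in CPM, 33.1% of all tested rows were separate upward and 34.2% downward, and the genes were picked on this comparison. RPL37 also took more reads per read of RPS6, 0.599 and 0.402 in arginine-free medium against 0.260 and 0.309 in control medium.

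EEF2 had 3.24 and 2.67 reads per read of RPS15 in arginine-free medium, against 1.88 and 1.91 in control medium, again without overlap. TARS1 had 0.114 and 0.0807 reads per read of RPS15 in arginine-free medium, against 0.1001 and 0.124 in control medium. This ratio overlapped between the media over a wide spread, so a difference was not shown. Against EEF2, by contrast, TARS1 had 0.0353 and 0.0303 reads per read in arginine-free medium and 0.0534 and 0.0650 in control medium. By these ratios EEF2 and RPS6 stood together, and RPL37 stood apart from RPS6 and RPS15. For RPS15 and TARS1 the overlap does not show that they moved alike.

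**Figure D3:**
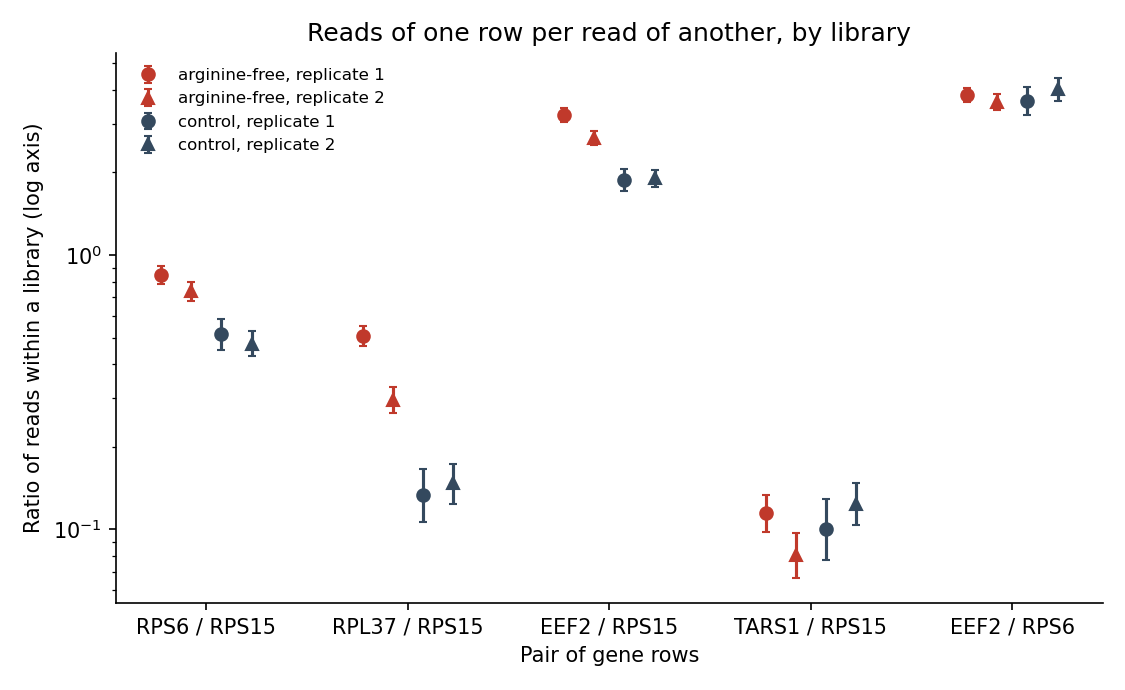
Ratio of the reads of one row to those of another within each library (log axis), for 5 pairs of rows. Bars are exact 95% binomial intervals, which treat reads as independent and leave out the spread between libraries. EEF2 / RPS6 stays between 3.62 and 4.02 in all 4 libraries, whereas RPL37 / RPS15 is 0.296 to 0.506 in arginine-free medium against 0.134 to 0.147 in control medium.

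Levels of different genes can be set side by side only per length, here as CPM per kilobase of the exon length in the table. The order below is one of rows. The share of its gene's reads that a row holds was not tested and may differ between the genes. In arginine-free medium EEF2 had 7116 and 8016 CPM per kb, RPS15 had 5381 and 7356, RPS6 had 2338 and 2787, RPL37 had 446 and 357, and TARS1 had 270 and 262. EEF2 and RPS15 overlapped there and did not differ beyond the spread of the libraries, while the other neighbours in that order were separate. In control medium RPS15 stood first at 5030 and 4521 CPM per kb, and EEF2 had 3856 and 3524. RPS6 followed at 1330 and 1104, then TARS1 at 222 and 247, and RPL37 stood last at 110 and 109 CPM per kb. By these lengths RPL37 and TARS1 were in opposite order in the media.

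Exon lengths in the table include long exons that overlap shorter ones, and the order depended on them. With the length of only the shortest exon of each overlapping group, a choice made after the data were seen, RPL37 was 722 bases long, RPS6 456 and RPS15 368. EEF2 stayed at 3158 bases. The reads were still those counted over all exons of a row, so rows whose length fell most rose most by construction. The mean levels in arginine-free medium were then 22342 ± 4901 CPM per kb for RPS15, 14095 ± 1748 for RPS6, 7566 ± 636 for EEF2, 4377 ± 690 for RPL37 and 316 ± 7.52 for TARS1 (SD, n = 2). In control medium they were 16752 ± 1263 CPM per kb for RPS15, 6695 ± 879 for RPS6, 3690 ± 235 for EEF2, 1194 ± 10.4 for RPL37 and 278 ± 20.9 for TARS1. The order was then the same in both media, with RPL37 above TARS1 in each.

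Rows that share the place of these genes were counted next. In an intron of RPL37, 83 bases from its nearest exon, lies the row of SNORD72, a small nucleolar RNA that guides modification of ribosomal RNA. It held 742 and 274 reads in arginine-free medium, against 94 and 261 in control medium, about as many as RPL37 itself. As levels these were 3213 and 1721 CPM in arginine-free medium, against 886 and 1339 CPM in control medium, with no overlap.

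The SNORD72 row was higher by 1.14 on the log2 scale (SE 0.30), with an edgeR adjusted p of 0.0093. This call ended without control replicate 1 (edgeR adjusted p = 0.0989) and under the stricter filter of 50 counts (edgeR adjusted p = 0.0844). There were 1.09 and 1.63 reads of RPL37 per read of SNORD72 in arginine-free medium, against 0.979 and 0.640 in control medium. Whether reads in this row of 80 bases belong to the neighbouring RPL37 exon was not tested.

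EEF2 likewise hosts SNORD37, whose row also lies 83 bases from the nearest EEF2 exon. It held 62 and 232 reads in arginine-free medium, against 39 and 84 in control medium. At 269 and 1457 CPM in arginine-free medium, against 368 and 431 CPM in control medium, it was high in arginine-free replicate 2 alone and the groups overlapped. Its log2 fold change of 1.06 (SE 0.51) did not pass (adjusted p = 0.124, edgeR). It did pass with library totals alone (edgeR adjusted p = 0.00798), with no filter on low counts (edgeR adjusted p = 0.000333) and without control replicate 2 (edgeR adjusted p = 0.0114). Without arginine-free replicate 2 the value was -0.54. With the other arginine-free library left out it was 1.89 and passed (edgeR adjusted p = 7.69e-08), so arginine-free replicate 2 decides its direction. EEF2 did not share this pattern, with 83.7 and 17.4 reads per read of SNORD37 in arginine-free medium, against 33.1 and 25.8 in control medium.

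Counting used no strand. The row on the opposite strand that overlaps an exon of RPS6 held no read in any library, and the one that overlaps an exon of TARS1 held 16 and 11 reads in arginine-free medium, against 5 and 6 in control medium. How reads that fall on both rows were counted was not tested, so these counts do not show how many reads the overlaps hold.

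The nearest protein-coding rows that could be named did not pass the test where they were tested, in the same edgeR fit. Beside EEF2, the kinase gene DAPK3 stood at -0.26 on the log2 scale (SE 0.33, adjusted p = 0.573) and PIAS4, a SUMO ligase, at 0.23 (SE 0.38, adjusted p = 0.675). Beside RPS6, DENND4C, which acts on Rab GTPases, stood at -0.31 (SE 0.28), beside RPS15 the RNA-binding protein gene DAZAP1 at 0.10 (SE 0.22), and beside RPL37 the AMPK subunit gene PRKAA1 at -0.37 (SE 0.26). The other nearest rows, ACER2, APC2, C7, NPR3 and ADAMTS12, had too few reads to be tested, and the last 3 had none. The rows next to these genes were therefore not shown to differ between the media.

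For each gene, the 3 protein-coding rows with the most similar pattern over the 4 libraries were looked up among 54 candidates. Candidates had a mean count of at least 50 and lay between SDHA and HMGCS1 on chromosome 5, VLDLR and VCP on chromosome 9, or ATP5F1D and CHAF1A on chromosome 19. In these stretches rows were read as genes, although the offsets between the builds were not measured and may differ in size from gene to gene. Likeness was the root-mean-square difference of log2(CPM + 1), centred on each row's own mean over the 4 libraries. These rows were selected for their likeness, and their values are given as descriptions.

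EEF2 and RPS6 shared the same 3 rows. These were THOP1, a cytosolic peptidase, MRPL36, a protein of the mitochondrial ribosome, and SF3A2, a splicing factor. THOP1 was closest to EEF2, at a difference of 0.05, and MRPL36 closest to RPS6, at 0.07. THOP1 had 407 and 471 CPM in arginine-free medium, against 207 and 205 CPM in control medium.

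RPS15 was most like LSM7, of the Lsm ring that binds U6 RNA and decaying mRNA, then NSUN2, an RNA cytosine methyltransferase, and TIMM13, a chaperone of mitochondrial import. LSM7 repeated the wide gap between the arginine-free libraries, with 801 and 1231 CPM there, against 792 and 836 CPM in control medium. TARS1 was most like RAI14, SMU1 and NCLN, and RAI14, an actin-associated protein, was the closest match of any, at a difference of 0.02. RAI14 had 442 and 427 CPM in arginine-free medium, against 358 and 410 CPM in control medium.

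RPL37 had the least similar matches. Its nearest row was ZNF622, a factor of large-subunit maturation, at a difference of 0.20, followed by the lipid droplet protein gene PLIN2 at 0.21 and the antizyme gene OAZ1 at 0.28. ZNF622 had 1139 and 1288 CPM in arginine-free medium, against 302 and 282 CPM in control medium. Its log2 fold change of 2.06 (SE 0.23) was the nearest to that of RPL37 among the rows named here, although its higher arginine-free library was replicate 2 and that of RPL37 replicate 1.

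**Figure D4:**
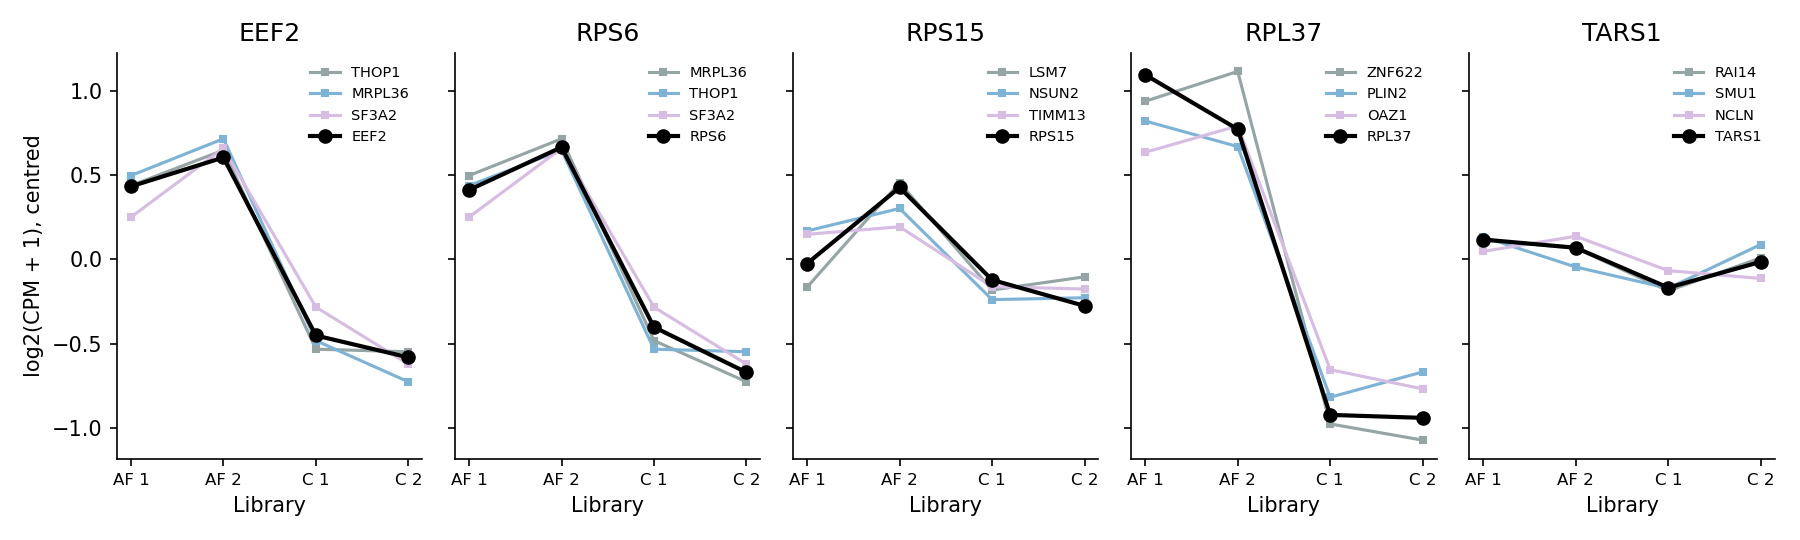
Log2(CPM + 1), centred on each row's mean, in the arginine-free (AF 1, AF 2) and control (C 1, C 2) libraries, for each of the 5 genes (black) and its 3 most similar rows; lines only join the points of a row. EEF2 and RPS6 share the same 3 rows and the same profile, TARS1 runs nearly flat, RPS15 is highest in AF 2, and RPL37 has the widest step, with its closest row ZNF622 at a difference of 0.20.

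Other genes of the translation machinery could be followed only in part. The lists comprised ribosomal proteins, initiation, elongation and recycling factors, aminoacyl-tRNA synthetases, eEF2 modification, mTORC1, the amino acid stress response and further oligopyrimidine mRNAs, and they left out the 5 genes themselves. Of their 200 genes, 185 were matched to a row, 131 of these rows had no read in any library, and 24 were tested. Among the 24, 1 was higher and 6 were lower, against 16% and 16.9% of all tested rows, and the median log2 fold change was -0.22, against -0.03 over all tested rows. The lower calls numbered 3 without control replicate 1 and also 3 without control replicate 2.

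Of these tested rows, only RRAGA and VLDLR lie in the stretches where rows were read as genes. RRAGA, the Rag GTPase that brings mTORC1 to the lysosome, had 637 and 660 CPM in arginine-free medium, against 452 and 554 CPM in control medium, and did not pass the test (edgeR adjusted p = 0.24) at 0.35 on the log2 scale (SE 0.22). VLDLR, a lipoprotein receptor listed with the stress response, was the 1 higher row (2.69 on the log2 scale, SE 0.41, edgeR adjusted p = 0.000241), with 72 and 32 reads in arginine-free medium, against 4 and 8 in control medium. None of the 2526 tested rows belonged to the small-subunit list, the list of eEF2 kinase and diphthamide synthesis, or the other oligopyrimidine mRNAs. RPS6 and RPS15 therefore cannot be set against their own class here. The elongation factor list had 1 tested row, outside the stretches, with a log2 fold change of 0.43 that was not called, which is too little to set EEF2 against.

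The 6 lower rows all lie elsewhere, where reads need not come from the gene named. At the places of the large-subunit proteins RPL13A and RPL26 the row means were 30.6 and 27.3 CPM in arginine-free medium, against 103 and 141 CPM in control medium. At the places of the synthetase subunit FARSA and the synthetase scaffold AIMP1 they were 27.7 and 25.6 CPM in arginine-free medium, against 130 and 85.6 CPM in control medium. The other 2 were at EIF4G2, an initiation factor, and GCN1, which activates the amino acid-sensing kinase GCN2, of which EIF4G2 held 7 and 6 reads in arginine-free medium, against 18 and 19 in control medium, and GCN1 held 1 and 2, against 13 and 28. Of the 6, all except GCN1 failed to pass with DESeq2 (adjusted p from 0.11 to 0.376). By list, 2 of 4 tested large-subunit rows and 2 of 5 synthetase rows were lower. So were 1 of 5 initiation factor rows and 1 of 2 stress response rows. The rest of these tested rows were not called, apart from VLDLR, which was higher.

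The cell type could be checked only at a few rows for the same reason. Of 8 melanocytic markers, 7 were matched and 4 of these, PMEL, TYR, MITF and SOX10, had no read. TYRP1 held 1 and 0 reads in arginine-free medium, against 16 and 25 in control medium, and MLANA 0 and 2, against 6 and 10. S100B held 0 and 0, against 1 and 1. Of all marker rows only TYRP1 and MLANA lie in the stretches where rows were read as genes. All 5 fibroblast markers were at 0, and leukocyte markers held 1 read in all. Keratinocyte marker rows held 8 and 4 reads in arginine-free medium, against 7 and 13 in control medium. Outside the stretches such counts do not show whether those cells were present. The part of these shifts in the values of the 5 genes was not tested.

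**Figure D5:**
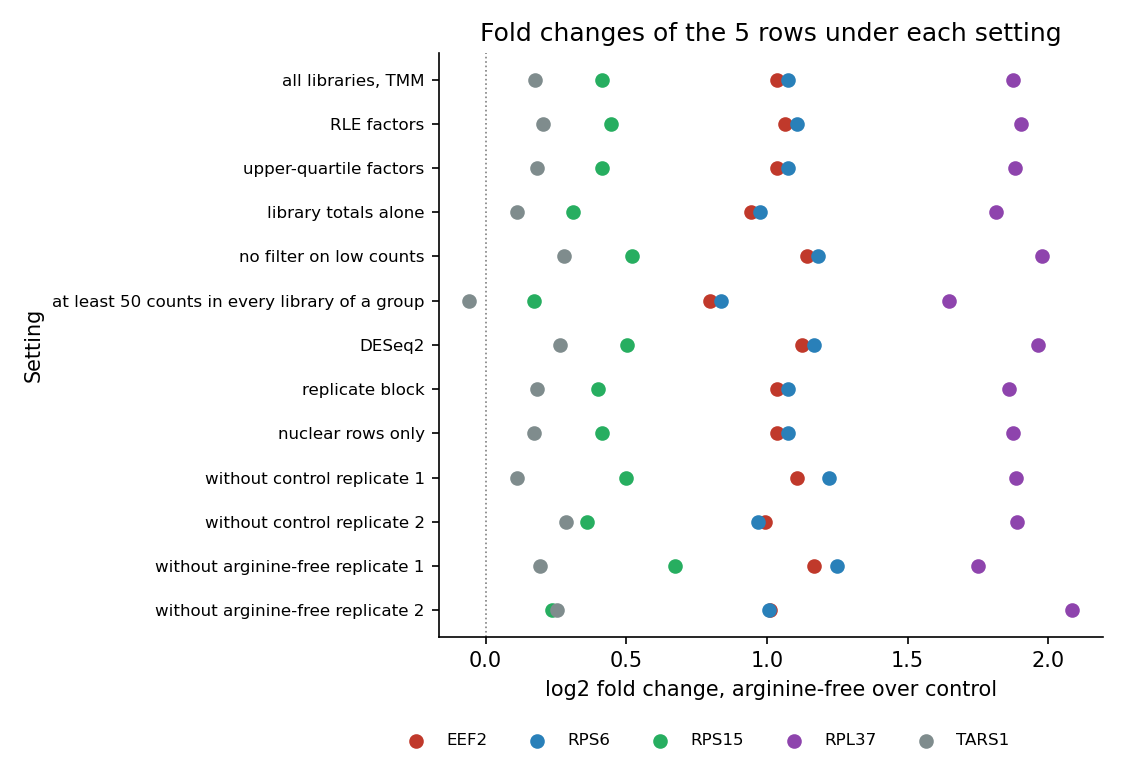
Log2 fold changes, arginine-free over control, of the 5 gene rows (colours) under each of 13 settings, with all libraries and TMM factors on top. RPL37 stays between 1.65 and 2.09, EEF2 and RPS6 lie next to each other between 0.80 and 1.25, and TARS1 crosses 0 once, at -0.058.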

How the data were processed

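The authors deposited raw counts per gene from featureCounts 2.0.1, taken over GENCODE 47 exons without strand and with the option for paired reads, per the file headers. Trimming and alignment tools in the submitters' processing notes are cutadapt, TopHat2 and Bowtie2 2.5.2, with GRCh37 and hg19. The exon length per row is the authors' deposited value too. Rows were named by place against RefSeq genes of GRCh38.p14 as mutual best matches whose overlap over union reached 0.5 where an edge was shared and 0.75 otherwise. This named 38563 of 78724 rows.

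The table was fitted with edgeR 4.0.16 (R 4.3.3; TMM, filterByExpr, quasi-likelihood test, Benjamini-Hochberg threshold 0.05), after the script had been tested on simulated data. DESeq2 1.42.0 was an alternative. Each SE was worked back from the F statistic of the test. Other steps used Python 3.11.15 and pandas 2.3.3. Replicate numbers were not used as pairs, since deviations of same-numbered libraries correlated at -0.04 over the tested rows.

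The genes and lists were chosen with earlier results of these data known. Named rows are the 5 genes, the 3 most similar rows of each, overlapping and nearest protein-coding rows, and tested list rows in the stretches; lower list rows elsewhere were named after their values were seen. A count of 0 allows 3 counts, or 12.8 to 28.6 CPM of all rows. For a single value, permuting 2 libraries against 2 (exact, two-sided) cannot give p under 33.3%.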

Additional observations from a re-analysis of the deposited data

How the results depend on the processing

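Fold changes of EEF2, RPS6, RPS15 and RPL37 kept their direction under all 12 alternatives to the fit. With the filter of 50 counts throughout either medium they were 0.80 (EEF2), 0.84 (RPS6), 0.17 (RPS15) and 1.65 (RPL37), and TARS1 was -0.058, the one value that changed sign. In the main fit these 5 values were 1.04, 1.08, 0.42, 1.88 and 0.18, so all 5 were lower with this filter, by similar amounts. TARS1 was 0.28 with no filter on low counts and 0.26 with DESeq2. Leaving out 1 library gave 0.99 to 1.17 for EEF2, 0.97 to 1.25 for RPS6, 0.24 to 0.67 for RPS15, 1.75 to 2.09 for RPL37 and 0.11 to 0.28 for TARS1. Rows higher and lower numbered 138 and 146 with the filter of 50 counts and 162 and 147 with DESeq2. Without 1 library they numbered 270 to 418 and 243 to 389. Among the translation lists, higher and lower rows numbered 0 and 0 with that filter, and 1 was lower with DESeq2. Without 1 library 1 to 2 were higher and 3 to 5 lower. The causes were not tested, although fewer rows or libraries entered some settings by construction. With the replicate block the log2 fold changes were 1.03 for EEF2 and 1.86 for RPL37, and 354 rows were higher. The block moved no count of calls by over 1.5 times. With the lengths of the shortest exons and unchanged reads, 2 of the 5 genes kept their place in the order of levels. The planned repeat with coding lengths was not run, nor was the planned count of arginine residues, since no protein table was used here. Of 511 values for 45 other named or listed rows, 482 kept their call, 23 lost it, 6 gained one and 0 of the called values reversed; SNORD37, not called, turned to -0.54 without arginine-free replicate 2. Depth limits TARS1, at 69 to 183 reads per library, and the share of each gene's reads that its row holds is unknown.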
